A study of Mus musculus with 6 samples.

Results

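The messenger RNAs of a small group of cytokine genes that act on lymphocytes were followed in the mouse melanoma line D4M-3A, with and without an intact Nfkbiz gene. Nfkbiz encodes IκBζ, a nuclear protein that modifies transcription by NF-κB and STAT factors. The group was defined by name as 6 genes, and all 6 were among the 43043 genes listed for each sample. They comprise 4 ligands, namely Il15, Il7, Tslp and Flt3l, and the receptor chains Il15ra and Il2rg. RNA-seq of total RNA was performed in 3 control samples (Ctrl) and 3 knockout samples (Nfkbiz KO), all kept as cultures in serum-containing medium. Ctrl cells had received an empty lentiviral construct and Nfkbiz KO cells a CRISPR-Cas9 construct against Nfkbiz, and both were selected with puromycin. Whether the cells were single clones or pools was not given in the sources used here. The study's methods describe 3 independent experiments per condition, whereas the labels give only a replicate number. If the samples of a group came from 1 edited culture, the p-values cover only the spread between these samples. Il15 and Il7 were also among the genes that the study itself displayed from these samples, so their direction here is not independent of that choice.

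IL-15 and IL-7 are cytokines that keep T cells and natural killer cells alive. Both signal through the common gamma chain, encoded by Il2rg, and through the kinases JAK1 and JAK3 to STAT5. IL-15 is unusual in that the producing cell binds it to its own IL-15 receptor alpha chain (Il15ra) and presents the complex on its surface to neighbouring lymphocytes. TSLP, an epithelial cytokine, uses the IL-7 receptor alpha chain together with the TSLP receptor (Crlf2) instead of the common gamma chain. FLT3 ligand (Flt3l) drives the development of dendritic cells and lymphoid progenitors through the receptor FLT3.

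Of the 6 genes, 5 were higher and 1 was lower in Nfkbiz KO cells. Il15, Il15ra, Il7, Flt3l and Il2rg rose, and Tslp fell, at an adjusted p of 0.05 or less in edgeR's quasi-likelihood test on gene reads. The same threshold was passed by 36.6% of the 14419 genes tested, with 18.2% higher and 18.4% lower in Nfkbiz KO. The samples of the groups did not overlap in log2 CPM (counts scaled to library size) for any of the 6 genes, a condition that 48.4% of all tested genes met. The median log2 fold change of the 6 genes was 1.04, against -0.02 over all genes tested. The members were chosen with earlier results of these data known, so these counts are a description of them. All 6 passed the filter on low counts, Il2rg through its 3 Nfkbiz KO samples and Ctrl replicate 3.

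Gene reads numbered 32219900 to 44927203 per sample, and 96.5% to 96.9% of them mapped uniquely. The groups separated on the first principal component, which held 61.8% of the variance. The counts of Ctrl samples differed more from each other (chi-square per degree of freedom of 25.8 to 65.9) than those of Nfkbiz KO samples (3.41 to 5.89). Nfkbiz itself was at 69.1, 75.2 and 63.4 TPM, a level normalized for length and depth, in Ctrl and at 34.8, 34.7 and 35.1 TPM in Nfkbiz KO. The targeted transcript was thus still present in every Nfkbiz KO sample, at a log2 fold change of -0.98 ± 0.056 (SE, n = 3 per group, edgeR adjusted p = 6e-08), and gene reads do not show whether it was edited. The study checked the knockout in D4M-3A cells at the protein level, by immunoblot of IκBζ. The label of a melanoma line was checked on 7 melanocyte lineage genes, of which Sox10, Tyr and Mlana were listed at 0 in all samples and only Mitf exceeded 1 TPM in any sample. Of 19 markers of immune cells, 18 stayed below 1 TPM in every sample, among them the leukocyte gene Ptprc at no more than 0.0304 TPM. The exception was the lysosomal gene Cd68, at 1.76 to 4.01 TPM (edgeR adjusted p = 0.37). Without Cd68, the summed level of the other 18 was 0.247 to 0.48 TPM in Ctrl against 0.191 to 0.423 TPM in Nfkbiz KO.

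**Figure D1:**
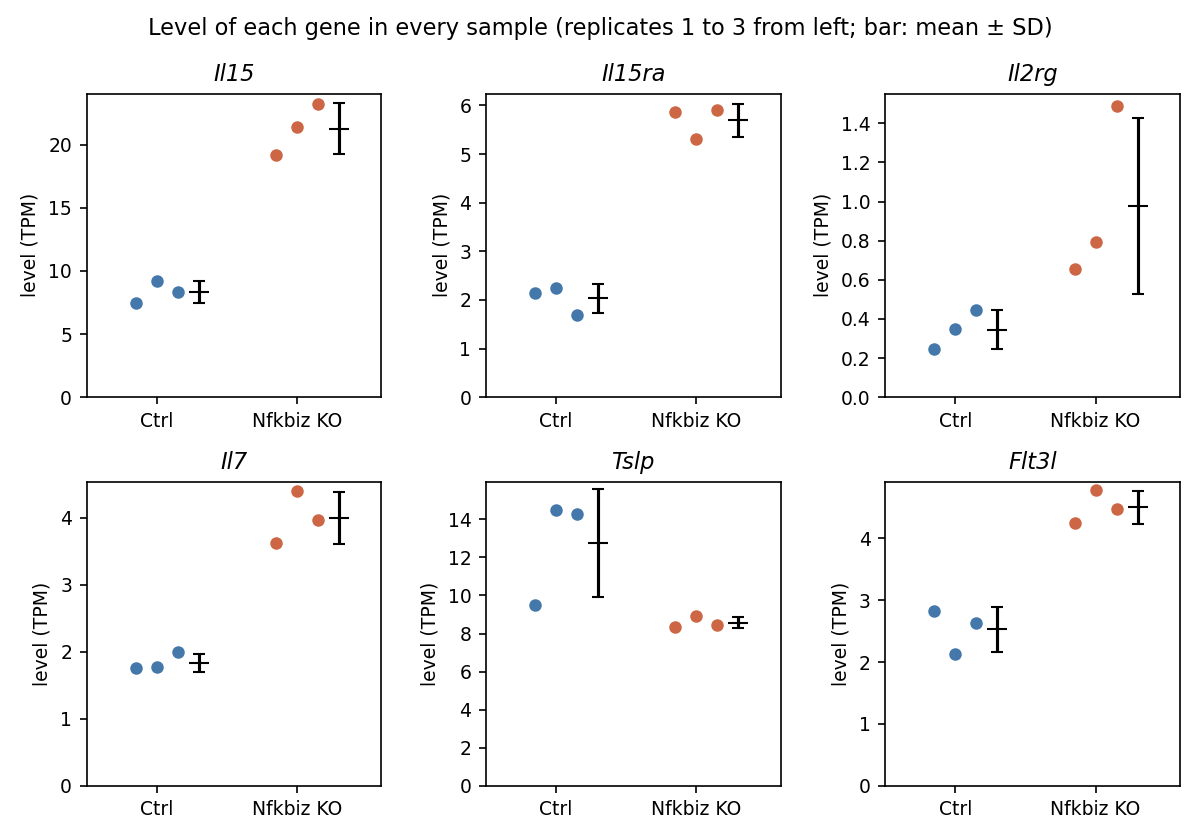
Level in TPM of the 6 genes in every sample, with points for Ctrl (blue) and Nfkbiz KO (orange) in replicate order and a bar for the mean ± SD of the 3 samples. Each axis starts at 0 and has its own range, and Il15 lies between 19.2 and 23.2 TPM in Nfkbiz KO against 7.48 to 9.17 TPM in Ctrl, while Tslp is the gene that is lower in Nfkbiz KO.

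Il15 had the largest gain in level. Its gene lies on the minus strand at chr8:83054226-83129874 of GRCm39 in the GENCODE annotation, where the noncoding RNA gene 9530004M14Rik overlaps it on the other strand. As strand was not used in counting, reads of this pair cannot be fully told apart where the genes overlap. Il15 was at 7.48, 9.17 and 8.33 TPM in Ctrl and at 19.2, 21.4 and 23.2 TPM in Nfkbiz KO. The lowest Nfkbiz KO sample thus stood above the highest Ctrl sample by more than the whole range within Ctrl. The mean level was 8.33 ± 0.847 TPM (SD, n = 3) in Ctrl and 21.3 ± 2 TPM in Nfkbiz KO, a difference of 12.9 TPM. These values rested on 367 to 437 gene reads per Ctrl sample and 673 to 1132 per Nfkbiz KO sample. On gene reads, the log2 fold change was 1.11 ± 0.086 (SE), a fold of 2.16 with a 95% interval of 1.9 to 2.46 and an edgeR adjusted p of 7.8e-07. The ratio of mean TPM was larger, at 2.55. TPM is based on reads in exons, whereas gene reads also include those in introns. The edgeR value also used normalization factors that were not applied to TPM, and the difference between the scales for this gene was not tested.

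Il15ra encodes the chain that presents IL-15. It lies on the plus strand at chr2:11710101-11739128 of GRCm39, with no other annotated gene overlapping it. Its level was 2.14, 2.25 and 1.70 TPM in Ctrl and 5.86, 5.30 and 5.91 TPM in Nfkbiz KO, so that the receptor chain moved in the same direction as its ligand. The mean level ± SD (n = 3) was 2.03 ± 0.29 TPM in Ctrl against 5.69 ± 0.338 TPM in Nfkbiz KO, on 130 to 161 and 316 to 469 gene reads. The log2 fold change was 1.41 ± 0.13 (SE), a fold of 2.66 with a 95% interval of 2.2 to 3.23 and an edgeR adjusted p of 3.1e-06. Of the genes tested, 98.7% had a lower log2 fold change than Il15ra, and 97.7% a lower one than Il15.

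The ratio of the ligand to its presenting chain was compared between the groups. Il15 exceeded Il15ra by 3.49, 4.08 and 4.90 times in TPM in Ctrl and by 3.28, 4.05 and 3.92 times in Nfkbiz KO, ranges that overlap. On log2 CPM, which is not normalized for length, Il15 minus Il15ra was 1.52 ± 0.19 (SD) in Ctrl and 1.21 ± 0.11 in Nfkbiz KO, a difference of -0.31 without overlap of the groups. In the exact two-sided permutation test over samples this gave p = 0.1, the smallest that 3 samples against 3 allow, and 0.3 after adjustment over 3 such pairs. The difference turned to 0.11 on log2(TPM + 1) and kept its sign in 8 of 9 alternatives, so its direction was not the same on every scale. Il15 minus Il7 changed by 0.14 (exact permutation p = 0.4, adjusted p = 0.6) and Il15 minus Il2rg by -0.09 (exact permutation p = 0.7, adjusted p = 0.7), and both of these overlapped between the groups.

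Il2rg, the common gamma chain through which lymphocytes receive IL-15 and IL-7, was the least expressed of the 6 genes. It lies on the minus strand at chrX:100307984-100311861 of GRCm39. Il2rg was at 0.244, 0.349 and 0.444 TPM in Ctrl and at 0.653, 0.791 and 1.49 TPM in Nfkbiz KO. Its counts were 6, 9 and 14 reads in Ctrl and 14, 21 and 45 reads in Nfkbiz KO, and 72.5% of them mapped uniquely. The highest Nfkbiz KO sample, replicate 3, stood well apart from the other two. The log2 fold change was 1.40 ± 0.43 (SE), a fold of 2.63 with a 95% interval of 1.38 to 5.03 and an edgeR adjusted p of 0.023. The call was lost without Nfkbiz KO replicate 3 (log2 fold change 0.93, edgeR adjusted p = 0.17), without Ctrl replicate 1 (1.21, adjusted p = 0.082) and without Ctrl replicate 2 (1.36, adjusted p = 0.058). The chains that complete the receptors of IL-2, IL-15 and IL-7 were at or near 0, with Il2rb at no more than 0.194 TPM, Il7r at no more than 0.0199 TPM and Il2ra listed at 0 in all samples.

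Il7 rose as well, from a lower level than Il15. It lies on the minus strand at chr3:7635054-7678825 of GRCm39. Il7 was at 1.75, 1.77 and 1.99 TPM in Ctrl and at 3.63, 4.40 and 3.97 TPM in Nfkbiz KO, again without overlap. The mean level ± SD (n = 3) was 1.84 ± 0.135 TPM in Ctrl against 4 ± 0.383 TPM in Nfkbiz KO, on 124 to 169 and 222 to 325 gene reads. The log2 fold change was 0.97 ± 0.12 (SE), a fold of 1.95 with a 95% interval of 1.63 to 2.34 and an edgeR adjusted p of 4.7e-05. The counting did not use strand, and the noncoding gene Gm16685 overlaps Il7 on the other strand. In Gm16685, 52 to 102 reads were counted per sample, and its log2 fold change was 0.23 ± 0.19 (SE, edgeR adjusted p = 0.38). Reads of this pair cannot be fully told apart where the genes overlap.

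Tslp was the gene that went the other way. It lies on the plus strand at chr18:32948436-32952850 of GRCm39. Tslp was at 9.49, 14.5 and 14.3 TPM in Ctrl and at 8.36, 8.92 and 8.45 TPM in Nfkbiz KO. The groups did not overlap, but Ctrl replicate 1 lay closer to the Nfkbiz KO samples than to the other Ctrl samples. The mean level ± SD (n = 3) was 12.8 ± 2.83 TPM in Ctrl against 8.58 ± 0.302 TPM in Nfkbiz KO, on 147 to 263 and 106 to 158 gene reads. The log2 fold change was -0.65 ± 0.16 (SE), with a 95% interval of -0.99 to -0.31 and an edgeR adjusted p of 0.0061. Tested on TPM with limma, the fall missed the threshold, at -0.50 on log2(TPM + 1) (adjusted p = 0.071) and -0.54 on log2(TPM + 0.1) (adjusted p = 0.076). Without Ctrl replicate 1 the log2 fold change was -0.80 (edgeR adjusted p = 0.0011). Its receptor chain Crlf2 was expressed at 21 to 26.2 TPM in all samples, with a log2 fold change of -0.12 ± 0.11 (SE, edgeR adjusted p = 0.45).

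Flt3l had the smallest log2 fold change of the 5 genes that rose. It lies on the minus strand at chr7:44779212-44785875 of GRCm39. Flt3l was at 2.83, 2.13 and 2.63 TPM in Ctrl and at 4.25, 4.78 and 4.47 TPM in Nfkbiz KO, and every Nfkbiz KO sample lay above every Ctrl sample. The mean level ± SD (n = 3) was 2.53 ± 0.365 TPM in Ctrl against 4.50 ± 0.267 TPM in Nfkbiz KO, on 101 to 151 and 178 to 244 gene reads. The log2 fold change was 0.73 ± 0.15 (SE), a fold of 1.66 with a 95% interval of 1.32 to 2.09 and an edgeR adjusted p of 0.0026. Flt3l shares sequence with the gene model Gm45713, which overlaps it on the same strand, and 60.3% of its reads mapped uniquely. The noncoding genes Gm72106 and Gm72133 overlap Flt3l on the other strand. As counting did not use strand, reads of these genes cannot be fully told apart where they overlap, also among unique reads. On unique reads alone the log2 fold change was 0.81 (adjusted p = 0.0015), while Gm45713 was at -0.16 ± 0.2 (SE, edgeR adjusted p = 0.56). The receptor gene Flt3 reached no more than 0.0146 TPM in any sample.

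**Figure D2:**
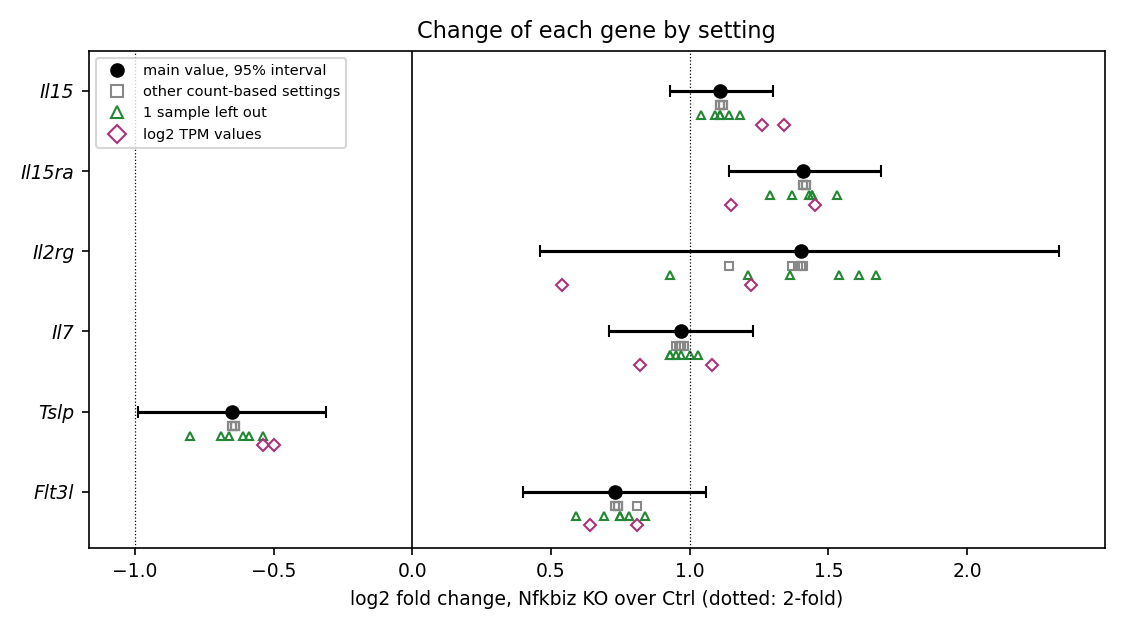
Log2 fold change of the 6 genes in Nfkbiz KO over Ctrl, with the main value and its 95% interval (black), the other count-based settings (grey squares), the fits that left out 1 sample (green triangles) and the fits on log2 TPM (purple diamonds). Il15, Il15ra, Il7 and Flt3l lie above 0 in every setting, Il2rg has the widest interval (0.46 to 2.33), and Tslp lies below 0.

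The order of the levels differed between the groups. In Ctrl, Tslp was the most abundant of the 6 by mean TPM, followed by Il15, Flt3l, Il15ra, Il7 and Il2rg. The sample ranges of Flt3l and Il15ra overlapped in Ctrl, as did those of Il15ra and Il7, so these neighbours were not distinguished. In Nfkbiz KO, Il15 came first, followed by Tslp, Il15ra, Flt3l, Il7 and Il2rg, and only Flt3l and Il7 overlapped. Compared with all tested genes, Il15 stood at percentile 40.1 of mean TPM in Ctrl and at percentile 57.5 in Nfkbiz KO, and Il2rg at percentiles 9.68 and 17.7. The survival cytokine transcripts were thus of low to middling abundance in these cells.

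The criteria in the study's methods were a fold change above 2, an adjusted p not above 0.05 and a difference of means above 4. No unit was given for the difference. The study's results text and figure legend give a fold change of at least 2 and a p not above 0.05. They name no such difference and do not call the p adjusted. With the difference taken in TPM, Il15 was the only one of the 6 genes to meet the criteria of the methods, as did 1.79% of all genes tested. Il15ra missed them by its difference of 3.66 TPM and Il2rg by its difference of 0.633 TPM, although both exceeded 2-fold. The number of members past the criteria depended on the unit of the difference, with 0 genes in RPKM, another exon-based level normalized for length and depth, 2 in CPM (Il15 and Il15ra) and 3 without a difference cut-off. Less stringent criteria after the study's, a change of 1.5-fold or more with a p not above 0.1, which was taken here as an adjusted p although the study does not say so, were met by all 6 genes and by 12.6% of all genes tested.

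The start regions of the genes were read from RefSeq promoter windows of 300 bases on GRCm38.p6, of which 4 belonged to 3 of the 6 genes, namely Il15ra, Il2rg and Flt3l. Il15 and Il7 had no entry, and Tslp was not searched. Windows were searched on both strands for an interferon-stimulated response element core (GAAANNGAAA), an NF-κB core (GGGANNNNCC) and a gamma-activated site core (TTCNNNGAA). These occurred in 3.44%, 20.7% and 8.3% of the 32851 windows searched. Flt3l held the first core on the reverse strand, beginning 10 bases before the start, and the second beginning 66 bases before it. Its window is printed because it was the only one of these 4 windows with an exact match to these cores. Matches are in capitals, and the window lies at chr7:45136383-45136682 on the minus strand.
Flt3l: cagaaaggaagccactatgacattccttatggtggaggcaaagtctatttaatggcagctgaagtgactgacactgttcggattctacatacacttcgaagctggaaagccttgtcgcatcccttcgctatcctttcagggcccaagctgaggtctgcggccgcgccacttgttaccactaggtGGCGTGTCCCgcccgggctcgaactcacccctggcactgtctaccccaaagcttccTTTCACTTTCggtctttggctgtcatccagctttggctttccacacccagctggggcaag
Il15ra had no exact match to any of the 3 cores in either of its windows. The window at chr2:11705462-11705761 on the plus strand holds the shorter core GAAANNGAA (in capitals), beginning 30 bases after the start. The other window of Il15ra also holds it, on the reverse strand beginning 149 bases before the start, as does the longer match in Flt3l. This core was chosen after the letters were seen, overlaps the longer one by definition, and occurs in 8.56% of all windows.
Il15ra: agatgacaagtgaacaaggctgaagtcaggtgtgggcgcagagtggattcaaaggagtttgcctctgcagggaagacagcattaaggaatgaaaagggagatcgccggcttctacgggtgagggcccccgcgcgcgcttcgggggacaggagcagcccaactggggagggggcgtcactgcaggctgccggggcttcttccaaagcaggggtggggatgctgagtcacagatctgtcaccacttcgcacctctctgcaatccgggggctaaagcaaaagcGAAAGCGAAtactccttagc
The Il2rg window held none of these cores. A match is a run of letters and was not tested as a binding site.

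Genes with the most similar pattern over the 6 samples were then sought among all tested genes, by the root mean square distance of log2 CPM centred on each gene's mean. The nearest to Il15 were Rsad2, an interferon-induced antiviral gene (distance 0.057), and C3ar1, the receptor of complement C3a (0.06). Rsad2 was far more abundant, with mean levels ± SD (n = 3) of 136 ± 7.87 TPM in Ctrl and 285 ± 23 TPM in the knockout. The nearest to Il7 were Syt7, a synaptotagmin (0.041), and Slfn5, an interferon-responsive Schlafen gene (0.057). Slfn5 had a log2 fold change of 1.05 (edgeR adjusted p = 7.9e-07). Those nearest to Il15ra were Pax5, a transcription factor of the B cell lineage (0.079), and Arap2 (0.084). Pax5 was at 7.29 ± 1.31 TPM in Ctrl against 19.4 ± 0.848 TPM in Nfkbiz KO, while the B cell marker Cd79a reached no more than 0.2 TPM in any sample. Flt3l was nearest to Msl3l2 (0.047) and Dmp1, a bone matrix protein gene (0.058). Tslp was nearest to Gm45783 (0.042) and Gm20544 (0.07), 2 gene models, of which Gm20544 fell at a log2 fold change of -0.63 (edgeR adjusted p = 0.00029) and Gm45783 did not pass the test (-0.69, adjusted p = 0.098). For Il2rg, with its few reads, the nearest genes Podn (0.19) and Cracd (0.24) were more distant than for the other 5.

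**Figure D3:**
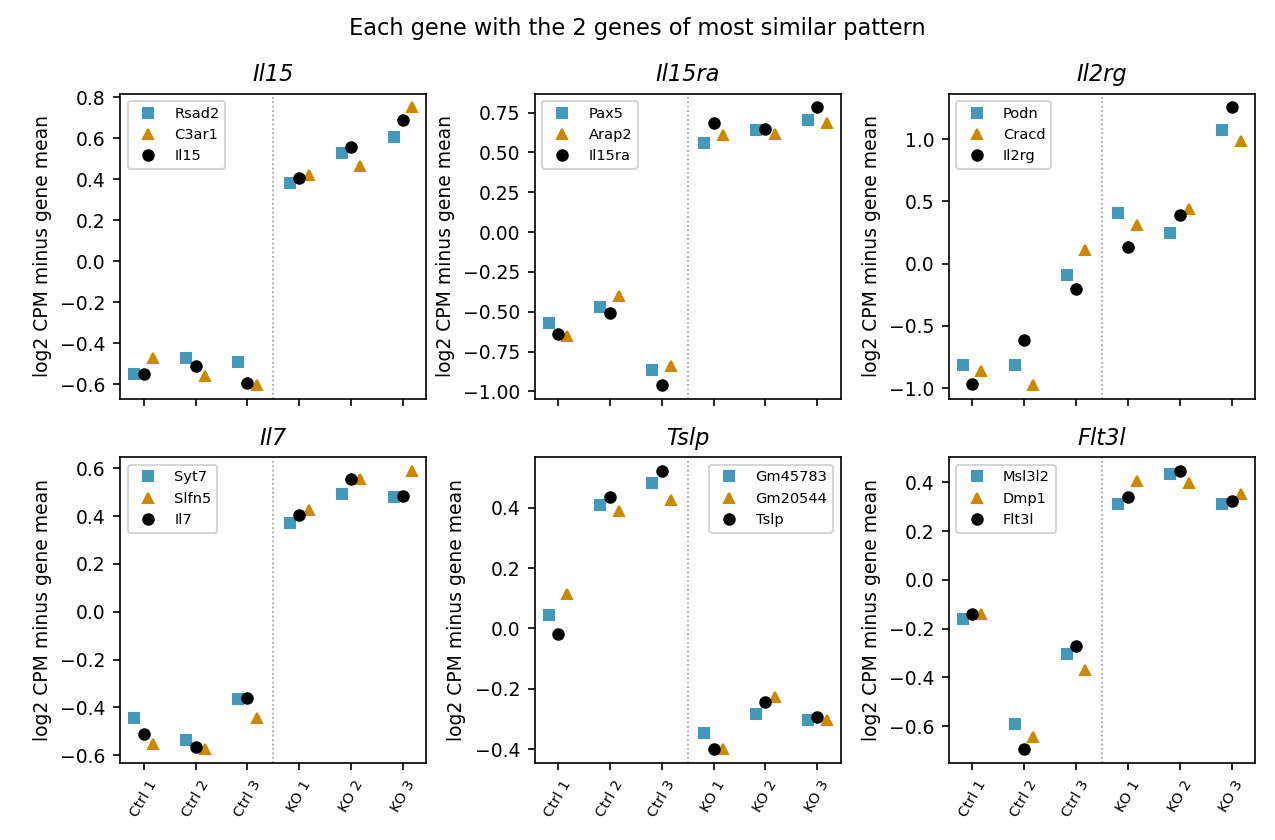
Log2 CPM minus the gene's mean over the 6 samples for each of the 6 genes (black circles) and its nearest genes (blue squares and orange triangles), with a dotted line between the Ctrl and Nfkbiz KO samples. Each scale differs. The Ctrl samples of Flt3l, Tslp, Il15ra and, by less, Il7 differ more from each other than their Nfkbiz KO samples do.

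The other genes of these receptor pathways were read from a list of 29. Of these, 19 could be tested, 1 rose and 9 fell, with a median log2 fold change of -0.13. Over all genes tested, 18.2% rose, 18.4% fell and the median was -0.02. The genes that fell included both chains that can form the type II IL-4 receptor. Il4ra went from 30.3 to 32.8 TPM in Ctrl to 22 to 22.7 TPM in Nfkbiz KO (log2 fold change -0.59 ± 0.054, SE, edgeR adjusted p = 3.5e-06). Il13ra1 had a log2 fold change of -0.49 ± 0.065 (SE, edgeR adjusted p = 9.2e-05). Among the kinases, Jak3, which pairs with the common gamma chain, fell by 0.86 on the log2 scale (adjusted p = 3.3e-07) and Jak2, which serves the TSLP receptor, fell by 0.38 (adjusted p = 0.0011), whereas Jak1 was at 0.00 (adjusted p = 0.98). Of the STAT5 genes, Stat5a fell by 0.22 (adjusted p = 0.037), a call lost in 10 of 15 alternatives, and Stat5b was at -0.10 (adjusted p = 0.2).

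Of 7 feedback and STAT5 target genes, 1 rose and 2 fell. Socs2, an inhibitor of cytokine signalling, was the gene that rose, with a log2 fold change of 0.71 ± 0.089 (SE, edgeR adjusted p = 5.8e-05). Cish, another STAT5 target of the same family, fell by 0.63 (adjusted p = 0.00046). Bcl2, a survival gene, fell by 0.27 (adjusted p = 0.02), while Socs1 (0.07, adjusted p = 0.65), Pim1 (0.00, adjusted p = 1), Bcl2l1 and Mcl1 did not pass the test. Of the proteases that shed receptors, Adam17 fell by 0.18 (adjusted p = 0.017) and Adam10 was at 0.08 (adjusted p = 0.24). The remaining call, Il4 at -0.68 (adjusted p = 0.0055), came from a gene whose TPM was listed at 0 in all samples, although 88 to 201 gene reads were counted in each. The ligands Il2, Il9, Il13 and Il21 did not pass the filter on low counts. On log2(TPM + 1) with limma, 2 of the 19 genes tested rose and 4 fell. In that setting the median over all genes tested was 0.06.

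Transcription factors known to act on such cytokine genes, and the coactivator gene Nlrc5, were taken as a list of 14, all of which could be tested. Of these, 8 rose and 2 fell, with a median log2 fold change of 0.25, beside the 18.2% that rose, the 18.4% that fell and the median of -0.02 over all genes tested. The interferon regulatory factors Irf1 (0.45 ± 0.05, SE, edgeR adjusted p = 2.2e-05), Irf2 (0.33, adjusted p = 0.0022) and Irf7 (0.55, adjusted p = 9.4e-06) rose, and Irf3, Irf8 and Irf9 did not pass the test. Irf7 was the most abundant of the 14, at 408 to 434 TPM in Ctrl against 649 to 663 TPM in Nfkbiz KO. Stat2 rose (0.23, adjusted p = 0.0058), and Stat3 fell by 0.63 (adjusted p = 1.6e-06). Among the NF-κB subunits, Nfkb2 (0.37, adjusted p = 0.00035), Relb (0.27, adjusted p = 0.0034) and Rel (0.31, adjusted p = 0.027) rose, Nfkb1 fell by 0.18 (adjusted p = 0.023) and Rela was at 0.09 (adjusted p = 0.22). The MHC class I coactivator Nlrc5 rose by 0.27 (adjusted p = 0.014). In the fits that left out 1 sample, 6 to 8 rose and 1 or 2 fell, with 8 and 1 without Ctrl replicate 1. The lowest count of genes that rose came without Nfkbiz KO replicate 1.

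Among 18 other factors that support lymphocytes, 9 could be tested, 3 rose and 4 fell, with a median log2 fold change of -0.09, beside the same 18.2%, 18.4% and -0.02 over all genes. Il18, a partner of IL-15 in activating natural killer cells, was at 12.4 to 14.3 TPM in Ctrl against 21.6 to 30.1 TPM in Nfkbiz KO (log2 fold change 0.89 ± 0.11, SE, edgeR adjusted p = 5.2e-05). Il33, an alarmin like TSLP, went the other way, from 219 to 287 TPM in Ctrl to 121 to 125 TPM in Nfkbiz KO (-1.16 ± 0.081, SE, edgeR adjusted p = 3.3e-07). The growth factor gene Kitl (0.58, adjusted p = 3e-05) and the adhesion gene Vcam1 (0.51, adjusted p = 2.5e-05) rose. Cxcl12, a chemokine, fell by 0.31 (adjusted p = 0.0018), and the TNF ligand genes Tnfsf13 (-1.41, adjusted p = 0.019) and Tnfsf9 (-0.33, adjusted p = 0.05) fell. Tnfsf13 had 57.4% unique reads, and its call was lost in 5 of 14 alternatives. The interleukin 12 genes Il12a and Il12b and the lymphoid chemokine genes Ccl19, Ccl21a and Cxcl13 were listed at 0 in all samples. On log2(TPM + 1) with limma, 3 of the 9 tested rose and 1 fell, where the median over all genes tested was 0.06.

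**Figure D4:**
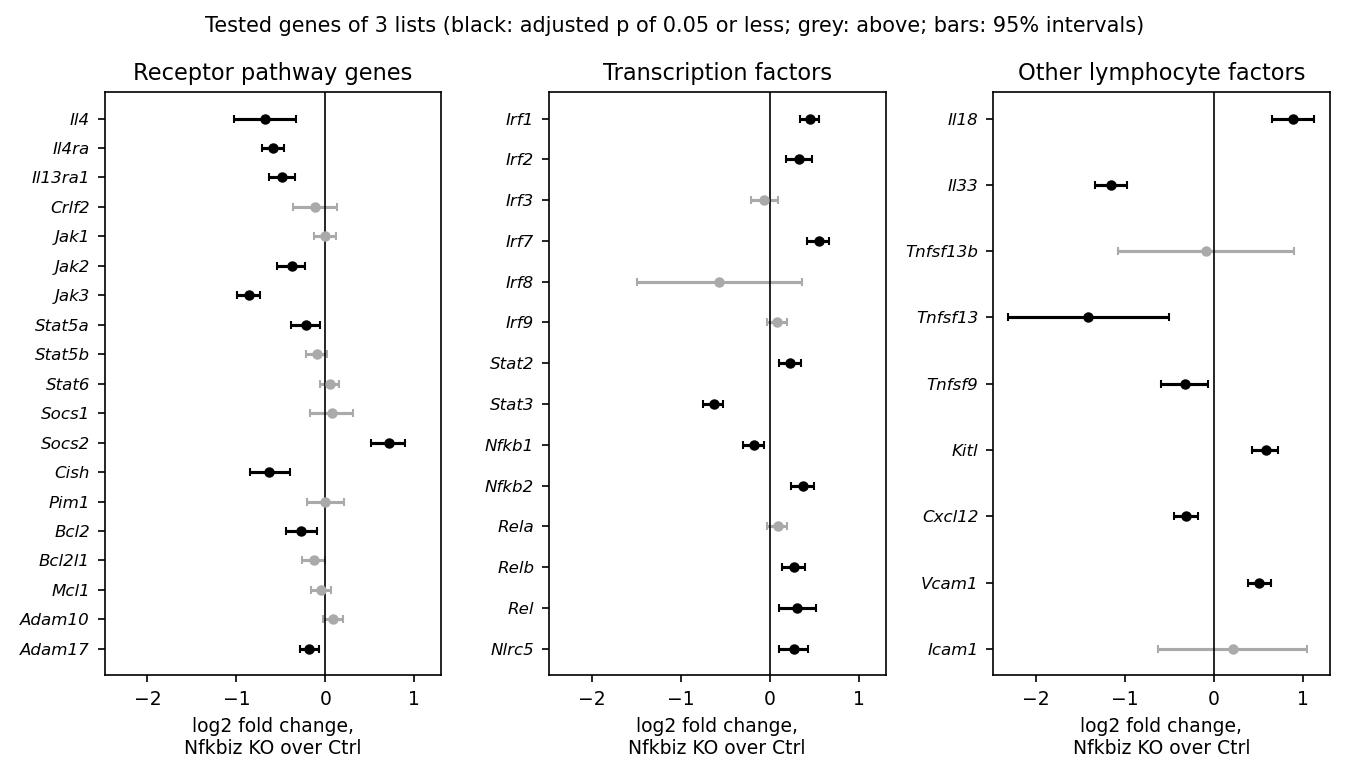
Log2 fold change in Nfkbiz KO over Ctrl with 95% intervals for the tested genes of the receptor pathway list (19 genes), the transcription factor list (14 genes) and the list of other lymphocyte factors (9 genes). Black points passed an adjusted p of 0.05 and grey points did not. Most black points lie below 0 in the first list (9 of 10) and above 0 in the second (8 of 10). Over all genes tested, 18.2% rose and 18.4% fell.

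Markers of other cell types were read beside these results. Of 36 markers, 29 stayed below 1 TPM in every sample. Among 5 fibroblast genes, Pdgfra, Pdgfrb, Col1a1 and Dcn were expressed and Lum was at or near 0. Col1a1 fell by 0.58 on the log2 scale (adjusted p = 1.2e-05) and Dcn by 0.79 (adjusted p = 0.00025), whereas Pdgfra was at 0.00 (adjusted p = 0.98) and Pdgfrb at 0.05 (adjusted p = 0.61). The summed level of the 5 genes was 429 to 495 TPM in Ctrl against 341 to 375 TPM in Nfkbiz KO, of which Col1a1 made up a mean of 367 and 263 TPM. Cdh5, an endothelial adhesion gene, rose from 0.397 to 0.671 TPM in Ctrl to 1.21 to 1.83 TPM in Nfkbiz KO (log2 fold change 1.34 ± 0.27, SE, edgeR adjusted p = 0.0023), while the endothelial gene Pecam1 was at no more than 0.134 TPM. Whether the changes of these markers had a part in the results above was not tested. In cultures measured in bulk, a change in the share of cells that express a gene and a change in the RNA per cell cannot be told apart.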

How the data were processed

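RNA of D4M-3A cells was sequenced by the authors' provider with paired 150-cycle reads. The authors counted reads per gene with CLC Genomics Workbench, without use of strand, and deposited total and unique gene reads as raw counts. The deposited TPM and RPKM values are named so per the file headers. This software computes them from exon reads, and 2105 to 2271 genes per sample had gene reads but an RPKM of 0. The study's methods name GRCm39 as genome and the submitters' processing notes GRCm38, and the annotation version is not given in the sources used here. Decimal commas were converted. Gene reads were tested with edgeR 4.0.16 in R 4.3.3, using TMM factors, filterByExpr at its defaults (minimum count 10, minimum total count 15), the quasi-likelihood test and Benjamini-Hochberg adjustment over 14419 genes. SE is the log2 fold change divided by the square root of F. log2 CPM used a prior count of 2, and permutation tests used scipy 1.17.1. DESeq2 1.42.0 and limma 3.58.1 were alternatives. The edgeR step was tested on simulated data. The members, lists and named genes were chosen with earlier results of these data known. Genes named are the members, Nfkbiz, list genes that passed the test, markers above 1 TPM and the 2 nearest genes per member, and others were chosen after their values were seen. Same-numbered samples did not deviate together, and no samples were duplicates. No protein sequences were used here, and 2 list genes are not reported here.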

Additional observations from a re-analysis of the deposited data

How the results depend on the processing

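Il15, Il15ra, Il7 and Flt3l kept their direction and their call in all 15 alternatives. The fall of Tslp missed the threshold in limma on log2(TPM + 1) (-0.50) and on log2(TPM + 0.1) (-0.54). The rise of Il2rg missed it in limma on log2(TPM + 1) (0.54) and in 3 of 6 fits without a sample (0.93 to 1.67 over all 6), and a filter of 1 CPM in 3 samples removed the gene. Il15 minus Il15ra turned to 0.11 on log2(TPM + 1). Il15 minus Il2rg turned to 0.72 on log2(TPM + 1), 0.12 on log2(TPM + 0.1) and 0.16 on unique reads, and ranged from -0.30 to 0.18 without a sample. The causes were not tested. Members past the study's criteria numbered 0 with the difference in RPKM, 2 in CPM, 3 without it and 6 under the less stringent criteria. Genes called numbered 5274, and 3798 to 5638 under the alternatives. Same-numbered samples did not deviate together (correlations 0.037, -0.023 and 0.026), and with the replicate number as a block 5087 genes and all 6 members were called. Of 642 values for 43 other named genes, 577 stayed on the same side of the threshold, 65 lost their call and 0 reversed. The calls of Stat5a, Bcl2, Adam17, Nfkb1, Rel, Nlrc5 and Tnfsf9 were each lost in 4 to 10 of 15 alternatives. Counts of list genes under the alternatives were added after the data were seen. Depth limits Il2rg most, at 6 to 45 reads per sample.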

Other observations

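The change of each gene was read from the edgeR value on gene reads and from mean TPM, which rests on exon reads. The scales also differ in normalization, as TMM factors were applied to gene reads and not to TPM. For Il15, the log2 ratio of mean TPM was 1.35, against 1.11 on gene reads. For Il7 the values were 1.12 and 0.97, for Il15ra 1.49 and 1.41, for Flt3l 0.83 and 0.73, for Il2rg 1.5 and 1.40, and for Tslp -0.57 and -0.65. The value from TPM was the higher one for all 6 genes. The median over all genes tested was -0.02 on gene reads and 0.06 on log2(TPM + 1). That scale adds 1 to each TPM, which the ratios of mean TPM do not. On log2(TPM + 1), Il2rg was at 0.54, below its value on gene reads, and Tslp at -0.50, above it. The median is thus not a like-for-like comparison, and whether the shift was particular to the 6 genes was not tested. The kind of reads and the normalization changed together, and the difference between the scales was not tested.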
